A study of Mus musculus with 7 samples.

Results

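Dendritic cell genes were examined in retinal microglia (rMG) sorted from mice labelled Irf8 KO, with and without laser injury of the retina. The 10 genes were a list of dendritic cell markers chosen by their levels in these same lasered and unlasered libraries, namely Flt3, Zbtb46, Xcr1, Clec9a, Cd209a, Itgae, Batf3, Ccr7, Fscn1 and Ccl22, and all 10 were found by symbol among the 40743 genes of the table. All 7 libraries came from adult mice on a C57BL/6J background. By the labels and methods, mice of both groups had both Irf8 alleles targeted and 1 allele of Cx3cr1 replaced by GFP. The 3 unlasered libraries were made from untreated eyes. The 4 lasered libraries were made 7 days after laser burns that induce choroidal neovascularisation (CNV), the growth of choroidal vessels under the retina. Each library held about 10000 cells pooled from 3 to 4 mice and sorted as CD45low CD11b+ Cx3cr1-GFP+ Ly6C- Ly6G-. From lasered mice only the central 70% of the retina was sorted, so that laser injury and retinal region cannot be told apart. The labels do not say which libraries shared mice, days or sorts, and p-values therefore measure the spread between these libraries.

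Conventional dendritic cells take up antigen, carry it to lymph nodes and present it on MHC class II to T cells. They arise from precursors that need the receptor FLT3, and one of their branches, type 1, depends on the transcription factors IRF8 and BATF3. On maturation, dendritic cells raise the chemokine receptor CCR7, by which they migrate, and secrete the chemokines CCL22 and CCL17, which attract T cells through the receptor CCR4. Microglia, the resident macrophages of the retina, share CX3CR1, CD11b and some further genes with these cells, so that a gate on these proteins does not by itself part the types.

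Levels are given as CPM, the reads of a gene scaled to the total of its library, and 3 reads of a library were taken as its floor. Library totals ran from 20427558 to 36022954 reads in unlasered and from 37133297 to 45919042 reads in lasered mice. Irf8, the targeted gene, had 530, 489 and 507 CPM in unlasered and 463, 465, 475 and 582 CPM in lasered libraries, so that the libraries are named by their labels throughout. The reads of Irf8 were listed jointly with Gm20388, a gene that overlaps it, and gene totals cannot tell which exons those reads cover. Microglial RNA was abundant in every library, with the microglia marker Fcrls between 3394 and 4514 CPM. Lasered libraries 1 and 2 stood apart by their MHC class II genes, which summed to 4096 and 6686 CPM against 193 to 662 CPM in the other 5 libraries.

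The letters before the start sites of Ccl22, Cd209a and Flt3 are shown. These 3 genes had their highest levels in lasered libraries 1 and 2 and have an entry in the RefSeq promoter table of GRCm38.p6. Batf3 had both traits too but was too low to be tested, and its letters are not shown. The letters shown are written 5′ to 3′ in the direction of the gene and end where the first annotated exon begins. Capitals mark a match to GGAANNGAA, a short form of the element that ETS and IRF factors bind together. The Ccl22 stretch (chr8:94745434-94745589, plus strand) is 156 bases long, and those of Cd209a (chr8:3748985-3749234, minus strand) and Flt3 (chr5:147400490-147400739, minus strand) are 250 bases long.
Ccl22: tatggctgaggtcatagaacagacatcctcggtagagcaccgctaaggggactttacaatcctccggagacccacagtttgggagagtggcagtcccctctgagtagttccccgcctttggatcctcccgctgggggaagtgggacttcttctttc
Cd209a: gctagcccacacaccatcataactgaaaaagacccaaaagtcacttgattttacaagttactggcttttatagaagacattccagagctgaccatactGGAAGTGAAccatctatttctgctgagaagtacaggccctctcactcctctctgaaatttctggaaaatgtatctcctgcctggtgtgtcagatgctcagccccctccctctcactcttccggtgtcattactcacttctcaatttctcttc
Flt3: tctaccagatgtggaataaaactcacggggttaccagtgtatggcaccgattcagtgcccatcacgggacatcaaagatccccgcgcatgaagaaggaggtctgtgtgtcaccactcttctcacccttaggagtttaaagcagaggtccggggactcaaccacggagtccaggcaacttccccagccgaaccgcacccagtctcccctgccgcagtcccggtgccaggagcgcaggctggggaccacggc

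Of the 10 genes, 8 have a promoter window in that table, and Itgae and Ccr7 do not. Each window of 250 bases was searched on both strands for TGANTCA (AP-1), GGAANNGAA (ETS and IRF), GAAANNGAA (interferon response) and GGGNNTTTC (NF-kappaB). GGAANNGAA was found in 1 of the 8 windows, that of Cd209a, from -152 to -144 of the start site, and in 6.99% of all 32851 windows. TGANTCA was found in 1 of the 8, that of Zbtb46, from -61 to -55 of the start site used there, and in 6.75% of all windows. That window (chr2:181424389-181424638, minus strand) lies inside the annotated Zbtb46 gene (chr2:181387762-181459426) and not before its 5′ end. The interferon and NF-kappaB letters were in 0 of the 8 windows and in 7.13% and 3.72% of all windows. These matches describe the letters of the windows and no binding was measured.

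Ccl22, the chemokine of mature dendritic cells and some macrophages that binds CCR4, was near the floor without laser and was read in every lasered library. Ccl22 (ENSMUSG00000031779, chr8:94745590-94751699, plus strand, GRCm38) had 4, 1 and 2 reads in unlasered libraries 1, 2 and 3, or 0.196, 0.0292 and 0.0555 CPM. In lasered libraries 1, 2, 3 and 4 it had 801, 1633, 408 and 131 reads, or 18.1, 36.4, 8.89 and 3.53 CPM. The groups did not overlap, and the lowest lasered library lay far above the highest unlasered one. Within the lasered group the level was highest in library 2 and lowest in library 4, so that the mean of 16.7 ± 14.4 CPM (SD, n = 4) describes no single library. The unlasered mean was 0.0935 ± 0.0896 CPM (SD, n = 3). Pooled over libraries, 7 unlasered reads stood against 2973 lasered reads, a ratio of 224 after scaling to library totals (95% interval 109 to 557, exact, covering counting error only). On the scale of log2(CPM + 1), which understates changes of low genes, the fitted difference was 3.62 with an SE of 0.59.

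**Figure D1:**
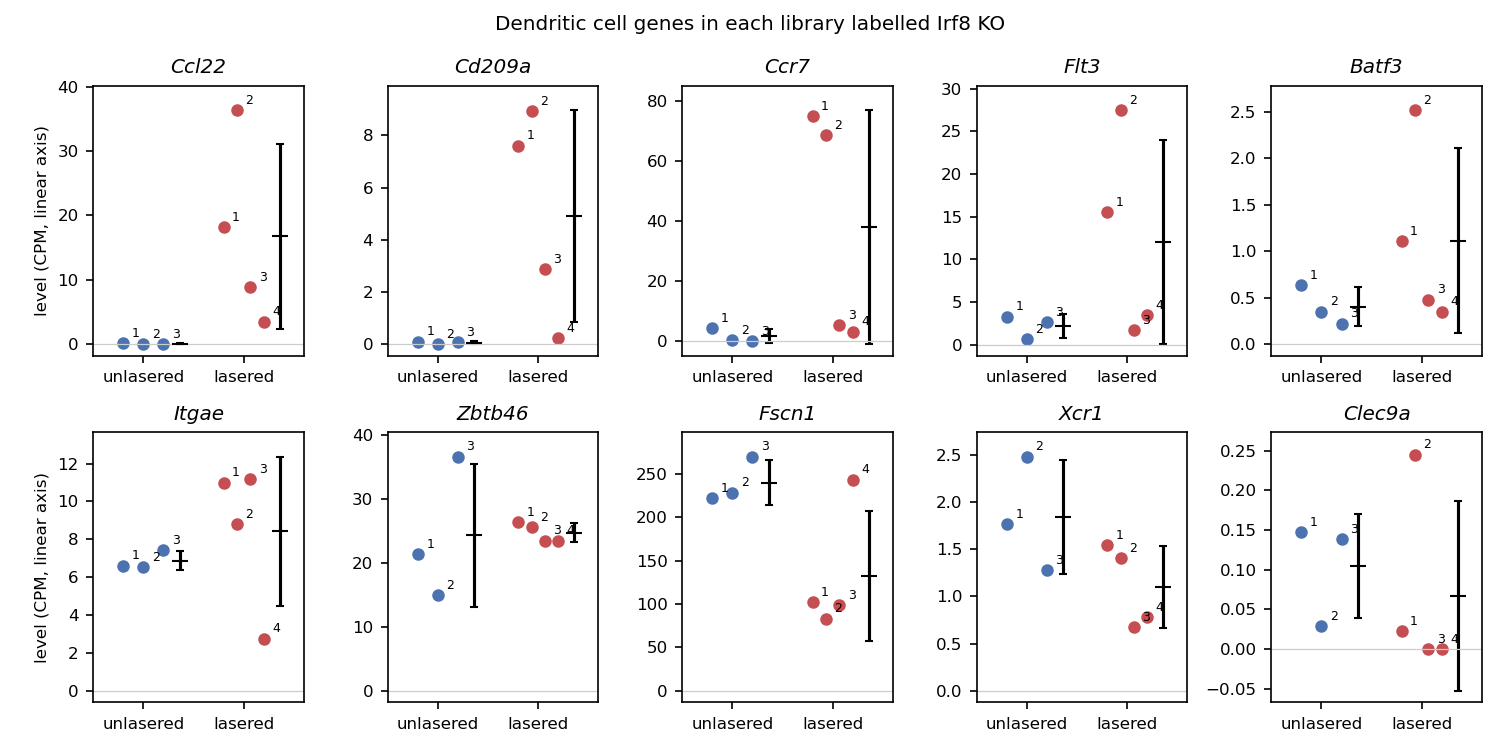
Level of each of the 10 dendritic cell genes in CPM on linear axes, 1 point per library with its replicate number, unlasered in blue (n = 3) and lasered in red (n = 4), with the mean and SD as black bars. Ccl22, Cd209a, Ccr7 and Flt3 were highest in lasered libraries 1 and 2, while Fscn1 was lowest in lasered library 2.

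Of the 8 genes that passed the filter of at least 1 CPM in at least 3 libraries, 1, Ccl22, had an adjusted p under 0.05 (limma), where 6.93% of all 17496 genes tested did. With 2 groups that did not overlap, Ccl22 and Cd209a were higher in all lasered libraries, as were 10.4% of all genes tested (21.0% in either direction). Both passed the filter only through the lasered libraries, and the 10 genes were chosen with this comparison known, so these counts are descriptions. Ccl22 was called when each single library was left out. It was not called when lasered libraries 1 and 2 were left out together, a fit chosen after seeing the data in which the difference was 2.62 and 0 of all genes tested were called by limma, with 2400 at an unadjusted p under 0.05.

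CCL22 shares its receptor with CCL17, which is encoded beside it. Ccl17 was listed at 0 in the 3 unlasered libraries and had 0.408, 11.9, 4.53 and 0 CPM in lasered libraries 1 to 4. Its order among the lasered libraries was not that of Ccl22, since library 1 had 0.0225 reads of Ccl17 per read of Ccl22, and libraries 2 and 3 had 0.328 and 0.510. Ccr4, the receptor of both, was between 0.135 and 0.416 CPM in all 7 libraries.

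Ccr7 and Fscn1, which act in the movement of mature dendritic cells, differed in opposite directions. Ccr7 (ENSMUSG00000037944, chr11:99144196-99155077, minus strand), the receptor for CCL19 and CCL21, had 4.16, 0.263 and 0.0278 CPM in unlasered libraries 1 to 3. It had 74.8, 68.5, 5.34 and 3.10 CPM in lasered libraries 1 to 4. Libraries 1 and 2 of the lasered group stood above all others, whereas lasered library 4 lay under unlasered library 1, so that the groups overlapped. The means were 1.48 ± 2.32 (SD, n = 3) and 37.9 ± 39.0 CPM (SD, n = 4), and the fitted log2 difference was 3.35 with an SE of 1.09. Without lasered libraries 1 and 2 that difference was 1.43. The ligand genes Ccl19 and Ccl21a had at most 0.0292 and 0.049 CPM in any library.

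Ccl22 and Ccr7 did not keep 1 ratio across lasered libraries. The reads of Ccl22 per read of Ccr7 were 0.243 and 0.531 in lasered libraries 1 and 2, and 1.67 and 1.14 in libraries 3 and 4. Ccl22 thus had fewer reads than Ccr7 in libraries 1 and 2 and more in libraries 3 and 4, but per kilobase of exon (CPM divided by exonic length, RPKM) the order in library 4 turned, with 1.52 RPKM of Ccl22 and 1.57 RPKM of Ccr7. Against Flt3 the ratio was 1.17, 1.32, 5.10 and 1.03 in lasered libraries 1 to 4, highest in library 3.

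Fscn1 (ENSMUSG00000029581, chr5:142960343-142973185, plus strand) encodes fascin, which bundles actin in the processes of mature dendritic cells and of other cells. Its level was 222, 229 and 270 CPM in unlasered libraries 1 to 3, and 102, 83.1, 98.4 and 244 CPM in lasered libraries 1 to 4. Lasered libraries 1, 2 and 3 lay under all unlasered libraries, and library 4 lay within their range. The means were 240 ± 26.2 (SD, n = 3) and 132 ± 75.1 CPM (SD, n = 4), with a fitted log2 difference of -0.995 and an SE of 0.32. Fscn1 was not called with all libraries, but was called when lasered library 4 was left out, where the difference was -1.34. Against its place in the list, Fscn1 was abundant in unlasered libraries 2 and 3, where Ccl22 had 1 and 2 reads and Ccr7 had 9 and 1 reads.

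Flt3 and Zbtb46 mark conventional dendritic cells as a whole. Flt3 (ENSMUSG00000042817, chr5:147330741-147400489, minus strand), the growth factor receptor of the lineage, had 3.28, 0.643 and 2.67 CPM in unlasered libraries 1 to 3. In lasered libraries 1 to 4 it had 15.5, 27.5, 1.74 and 3.42 CPM. Lasered libraries 1 and 2 stood far above the unlasered ones and library 4 just above the highest of them, while library 3 lay under 2 of them, so that the groups overlapped. The means were 2.20 ± 1.38 (SD, n = 3) and 12 ± 12 CPM (SD, n = 4), with a fitted log2 difference of 1.56 and an SE of 0.76. That difference was 0.24 without lasered libraries 1 and 2. Flt3l, the gene of the FLT3 ligand, ranged from 2.34 to 5.68 CPM over the 7 libraries, with a difference of -0.29 and an SE of 0.23. Its reads too were listed jointly with another gene and cannot be credited to Flt3l alone.

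Zbtb46 (ENSMUSG00000027583, chr2:181387762-181459426, minus strand), a transcription factor of conventional dendritic cells that is also made by endothelium, had 21.4, 14.9 and 36.6 CPM in unlasered and 26.3, 25.5, 23.5 and 23.5 CPM in lasered libraries. The lasered libraries lay close together and inside the unlasered range. The means were 24.3 ± 11.1 (SD, n = 3) and 24.7 ± 1.47 CPM (SD, n = 4), and the difference of 0.11 with an SE of 0.26 turned to -0.18 without unlasered library 2. Unlike Flt3, Zbtb46 was not raised in lasered libraries 1 and 2.

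Of the genes that mark single branches, Cd209a was the one whose groups did not overlap. Cd209a (ENSMUSG00000031494, chr8:3743397-3748984, minus strand), a C-type lectin of type 2 and monocyte-derived dendritic cells, had 2, 0 and 3 reads in unlasered libraries 1 to 3. It had 336, 401, 132 and 9 reads in lasered libraries 1 to 4, or 7.61, 8.93, 2.87 and 0.242 CPM. All unlasered libraries were at or under the floor, and lasered library 4 was not far above it. Pooled reads were 5 against 878, a ratio of 92.5 (95% interval 39.5 to 286, exact, counting error only), and the fitted log2 difference was 2.09 with an SE of 0.62. Cd209a was not called by limma with all libraries, and was called by edgeR and DESeq2 on the reads, which called 7.24% and 13.2% of all genes. Its neighbours of the same family had at most 32 reads in any library, 31 of Cd209c in lasered library 2 and 32 of Cd209b in unlasered library 1, and reads shared among such copies are uncertain. The reads of Cd209a per read of Ccl22 were 0.419, 0.246, 0.324 and 0.0687 in lasered libraries 1 to 4.

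Xcr1, Clec9a and Batf3, the markers of type 1 dendritic cells, were low in all libraries. Xcr1 (ENSMUSG00000060509, chr9:123852315-123862029, minus strand), the receptor for XCL1, had 1.76, 2.48 and 1.28 CPM in unlasered and 1.54, 1.40, 0.675 and 0.781 CPM in lasered libraries. The groups overlapped, and the difference was -0.44 with an SE of 0.24. Its ligand gene Xcl1 had at most 0.0871 CPM. Clec9a (ENSMUSG00000046080, chr6:129408862-129424763, plus strand), a receptor for dead cells, had 3, 1 and 5 reads in unlasered and 1, 11, 0 and 0 reads in lasered libraries. It was thus at or under the floor in 5 of the 7 libraries and was not tested. A count of 0 allows up to 0.0653 and 0.0808 CPM in lasered libraries 3 and 4, and 184 exonic bases of Clec9a overlap Clec1b.

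Batf3 (ENSMUSG00000026630, chr1:191097847-191108945, plus strand), the AP-1 family factor on which type 1 dendritic cells depend, did not pass the filter either. It had 13, 12 and 8 reads in unlasered libraries, or 0.636, 0.350 and 0.222 CPM. In lasered libraries 1 to 4 it had 49, 113, 22 and 13 reads, or 1.11, 2.52, 0.479 and 0.350 CPM. The groups overlapped, with lasered libraries 1 and 2 above the other 5. Batf and Batf2, which can stand in for Batf3 in dendritic cells, were more abundant, at 14.3 to 22.8 and 28.0 to 39.0 CPM, and their differences of 0.36 and 0.23 (SE 0.16 and 0.14) did not pass the test. The reads of Batf2 were listed jointly with another gene, so that its level cannot be credited to Batf2 alone. Of the 17 partner genes of the 10 members, 12 were tested and 0 called. Id2, which type 1 dendritic cells need, had 80.3 to 128 CPM unlasered and 125 to 209 CPM lasered (difference 0.69, SE 0.21, adjusted p = 0.0817, limma). Irf4, the factor of type 2 dendritic cells, had 16.2 to 25.6 CPM over the 7 libraries, and the AP-1 and ETS factor genes Jun, Junb, Jund and Spi1 had differences of 0.02, 0.03, -0.43 and -0.12.

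Itgae (ENSMUSG00000005947, chr11:73090583-73147446, plus strand) encodes CD103, the integrin chain that pairs with integrin beta 7 and binds E-cadherin. It had 6.61, 6.54 and 7.44 CPM in unlasered and 11.0, 8.80, 11.2 and 2.75 CPM in lasered libraries. Lasered libraries 1, 2 and 3 lay above all unlasered ones and library 4 lay under all of them, so the mean levels of 6.86 ± 0.50 (SD, n = 3) and 8.43 ± 3.94 CPM (SD, n = 4) hide a split. The difference of 0.12 (SE 0.39) turned to -0.04 without lasered library 1 and to -0.046 without lasered library 3. Haspin lies inside Itgae on the other strand at 1.67 to 5.11 CPM. The library kit does not mark strand, but the exons of Haspin and Itgae share 0 bases. The partner genes had other patterns. Itgb7 had 11.9, 4.26 and 28.4 CPM in unlasered and 36.4, 44.2, 6.16 and 2.34 CPM in lasered libraries, and Cdh1, the gene of E-cadherin, had 1.86, 0.672 and 2.97 against 18.8, 40.1, 1.22 and 0.269 CPM. Both were highest in lasered libraries 1 and 2.

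Levels of different genes were compared in RPKM, with all annotated exons of a gene as its length. Fscn1 had the highest mean of the 10 in both groups, 79.8 unlasered and 43.8 lasered RPKM. In lasered libraries 1 and 2, however, Ccr7 (37.8 and 34.6 RPKM) lay above Fscn1 (34.0 and 27.6 RPKM). In unlasered libraries Zbtb46 (2.86), Itgae (1.5), Ccr7 (0.750), Xcr1 (0.413), Flt3 (0.356) and Batf3 (0.252 RPKM) followed, and Ccl22, Cd209a and Clec9a came last, between 0.0319 and 0.0402 RPKM. The ranges of the last 3 overlapped, as did those of Xcr1, Flt3 and Batf3, and that of Ccr7 overlapped every other but Fscn1. In lasered libraries the order was Fscn1, Ccr7 (19.2), Ccl22 (7.20), Cd209a (3.11), Zbtb46 (2.90), Flt3 (1.95), Itgae (1.84), Batf3 (0.698), Xcr1 (0.247) and Clec9a (0.0203 RPKM). There each neighbouring pair from Ccr7 to Xcr1 had ranges that overlapped, while Fscn1 overlapped with Ccr7 and Xcr1 lay above Clec9a in every library.

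**Figure D2:**
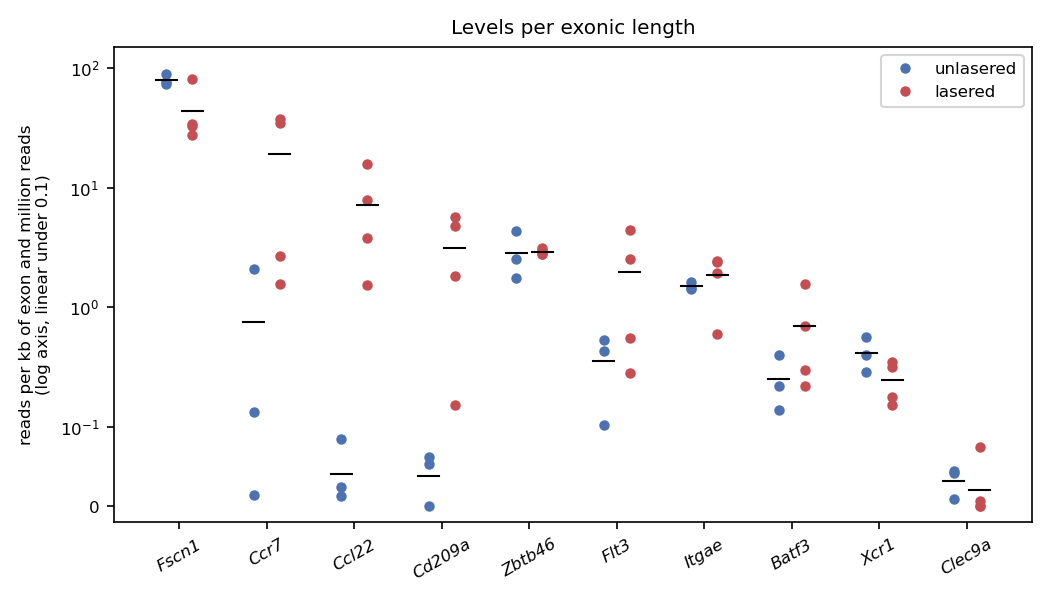
RPKM of the 10 genes per library, ordered by the lasered mean, on an axis that is logarithmic above 0.1 and linear below, with black lines for group means (unlasered blue, n = 3; lasered red, n = 4). Fscn1 had the highest mean in both groups, while Ccr7 lay above it in lasered libraries 1 and 2. Ccl22 had a mean of 0.0402 RPKM unlasered and 7.20 RPKM lasered.

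Other genes of dendritic cells were taken from 5 lists (type 1, type 2, mature or migratory, shared, and plasmacytoid) that hold 57 genes besides the 10, of which 48 were tested. Of these, 4 rose and 2 fell after laser injury (limma, adjusted p under 0.05), where 3.86% of all genes tested rose and 3.07% fell. The median log2 difference was 0.36 over the 48 genes and -0.01 over all 17496. In the mature or migratory list, 3 of 14 tested genes rose. Socs2, a feedback inhibitor of cytokine signalling, was between 0.636 and 1.19 CPM in unlasered and between 2.53 and 9.27 CPM in lasered libraries, a difference of 1.72 (SE 0.34, adjusted p = 0.0224, limma). Marcksl1, an actin-binding protein, rose by 0.75 (SE 0.16, adjusted p = 0.0284, limma), and Relb, a subunit of NF-kappaB, by 0.54 (SE 0.14, adjusted p = 0.0477, limma). All 3 had groups that did not overlap.

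Among the plasmacytoid genes, Irf7, the interferon regulator, rose by 1.80 (SE 0.18, adjusted p = 0.0027, limma), and Cox6a2, a subunit of cytochrome c oxidase, fell by 1.30 on the log2 scale (SE 0.19, adjusted p = 0.0088, limma). Among the type 1 genes Cadm1, an adhesion molecule, fell by 1.09 on the log2 scale (SE 0.17, adjusted p = 0.0106, limma). In the type 2 list 0 of 9 and in the shared list 0 of 7 tested genes were called. The count of genes that rose was 1 without unlasered library 1 or without lasered library 1, 2 or 3, and 2 without unlasered library 2. It was 0 without lasered libraries 1 and 2 together.

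**Figure D3:**
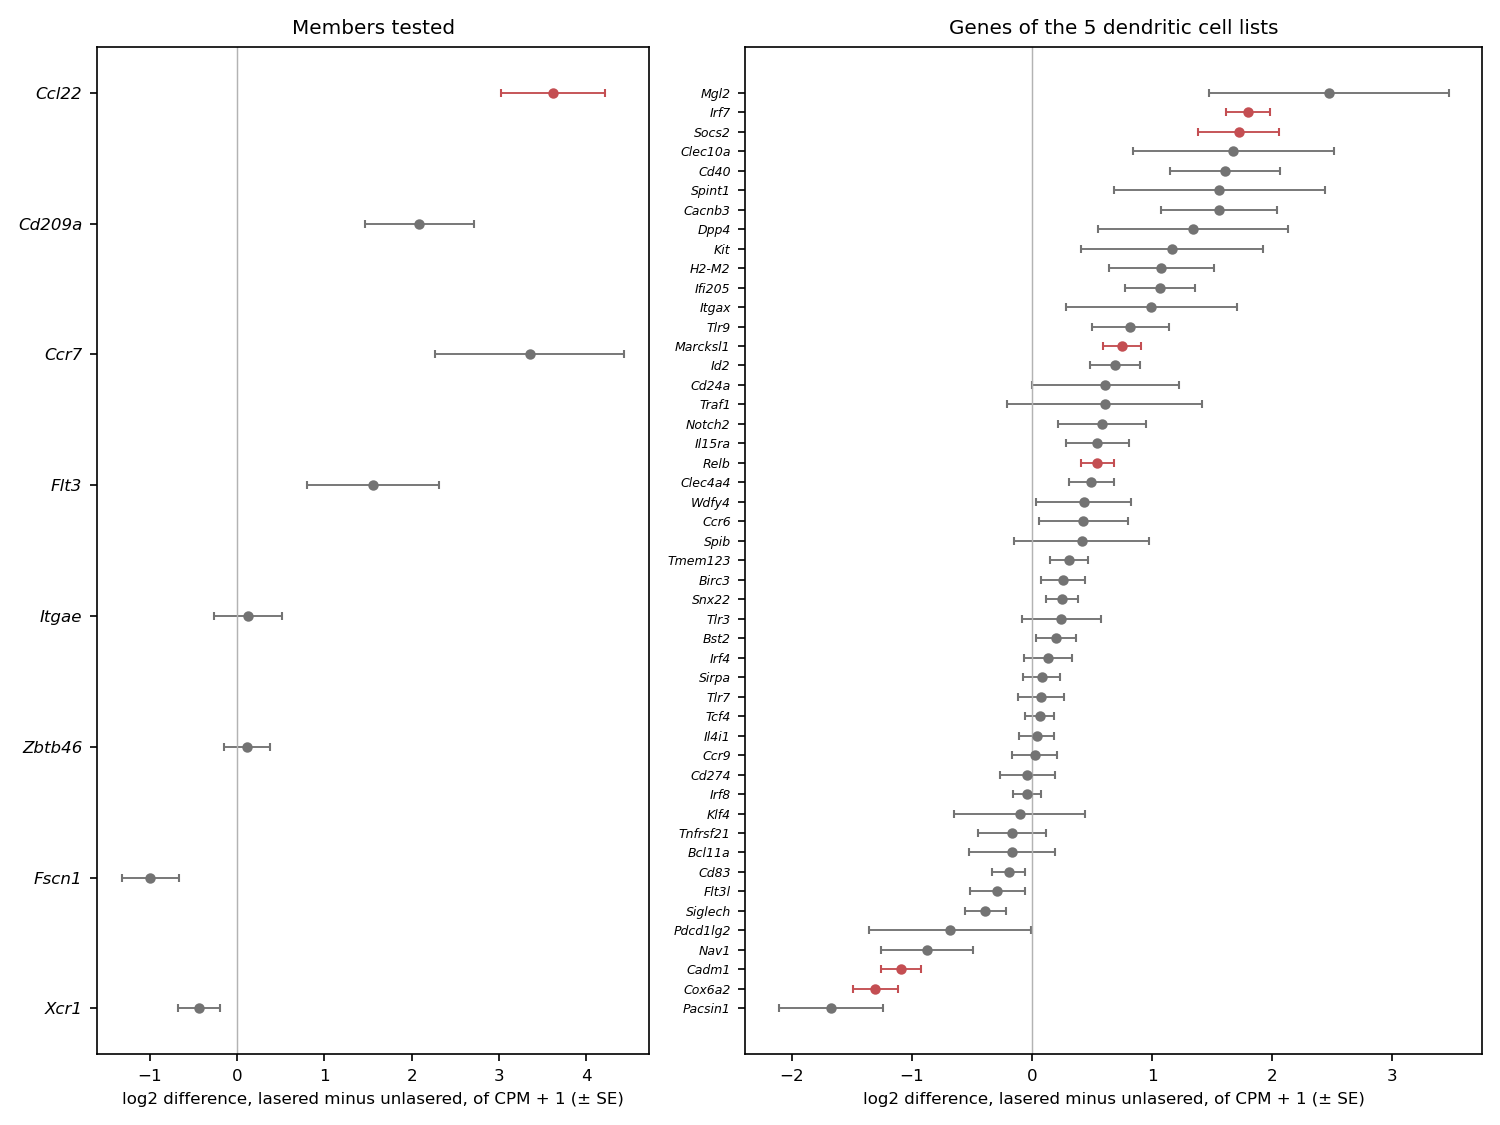
Fitted log2 difference of CPM + 1, lasered minus unlasered, with SE, for the 8 members tested (left) and the 48 tested genes of the 5 dendritic cell lists (right), where red marks an adjusted p under 0.05 in limma. Ccl22 is the member in red, at 3.62, and the wide bars of Ccr7 and Mgl2 go with the split among lasered libraries.

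The split of the lasered group was common to many of these genes. Lasered libraries 1 and 2 held the 2 highest levels of 4 of the 8 members tested (Flt3, Cd209a, Ccr7 and Ccl22) and of 19 of the 48 list genes, or 39.6%, against 11.4% of all genes tested. This way of counting was chosen after the levels had been seen. Mgl2 and Clec10a, lectins of type 2 dendritic cells named after their values were seen, had 24.1 and 12.3 CPM in lasered library 1 and 54.3 and 26.8 CPM in lasered library 2. The other 5 libraries had at most 3.48 CPM of Mgl2 and 2.69 CPM of Clec10a. The maturation gene Cd40, chosen in the same way, had 5.66, 5.23, 1.35 and 0.781 CPM in lasered libraries 1 to 4 against 0.0584 to 0.333 CPM unlasered. Most genes of these 2 lists were not highest in lasered libraries 1 and 2, since 3 of 9 tested type 2 genes and 5 of 14 tested mature or migratory genes were. Sirpa, the most abundant type 2 gene, had 1416 to 2135 CPM unlasered and 1619 to 1962 CPM lasered. Cd83, the most abundant mature or migratory gene, had a difference of -0.19 (SE 0.14).

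MHC class II, by which dendritic cells present antigen, followed the same libraries. Of its 10 genes, 9 had their 2 highest levels in lasered libraries 1 and 2, and 0 of 10 passed the test. H2-Ab1 had 32.9, 9.49 and 79.4 CPM in unlasered and 858, 1497, 114 and 28.6 CPM in lasered libraries. Over the 7 libraries, Flt3 and the MHC class II sum had a Pearson r of 0.93 and a Spearman rho of 0.64 on the log2 scale, and r was 0.30 without the 2 libraries farthest from the median sum. For Ccl22 r was 0.85, rho 0.86 and r 0.40 without those 2, and for Cd209a they were 0.94, 0.86 and 0.67. For Ccr7 the values were 0.90, 0.75 and 0.25, and for Fscn1 -0.83, -0.71 and -0.56. These relations thus rested largely on lasered libraries 1 and 2, and the points share groups and depth.

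**Figure D4:**
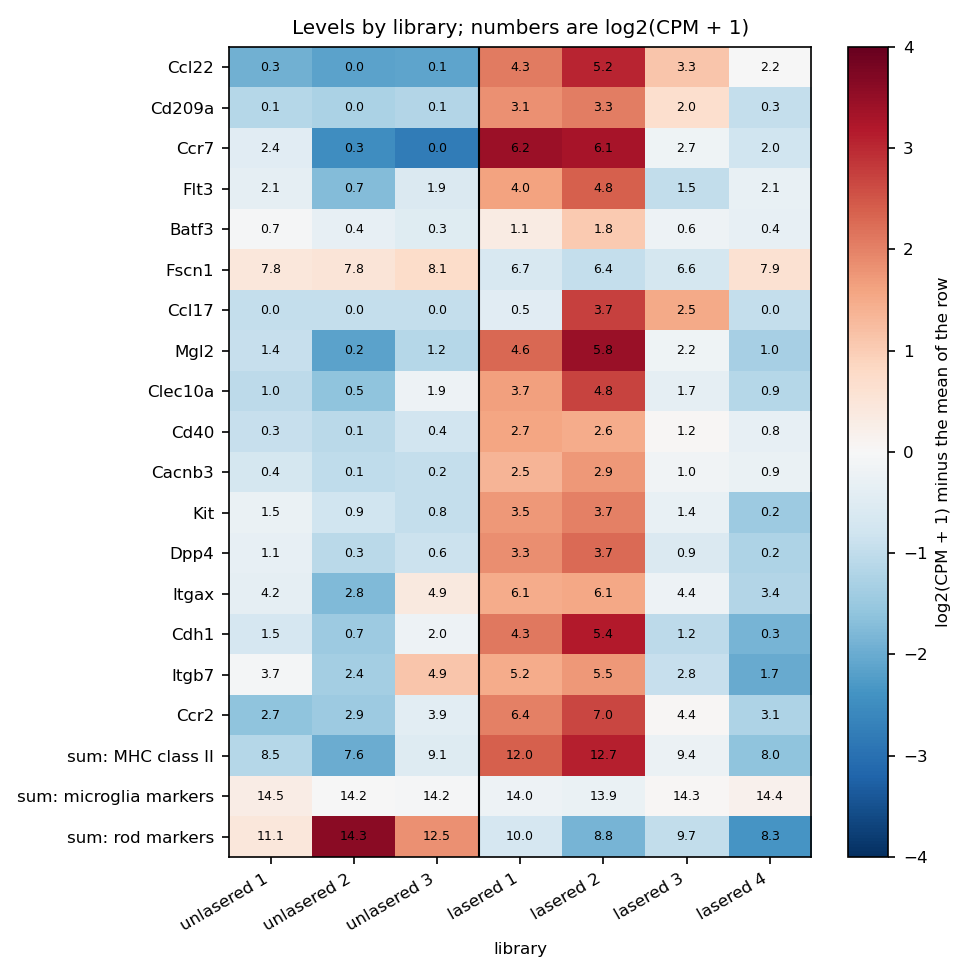
Levels of 6 members, of genes chosen after their values were seen and of 3 marker sums in the 7 libraries; numbers are log2(CPM + 1) and colours show the difference from the mean of each row. Ccl22, Ccr7, Mgl2 and the MHC class II sum are highest in lasered libraries 1 and 2.

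Markers of other cells that the gate could hold were summed in each library, and their part in the levels of the 10 genes was not tested. The 10 microglia markers summed to 18389 to 23292 CPM unlasered, and lasered libraries 1 to 4 held 16402, 15621, 19600 and 21131 CPM, lowest where MHC class II was highest, and 0 of 9 tested passed. The 8 monocyte genes summed to 104 to 314 CPM unlasered and 116 to 320 CPM lasered. Ly6c2, a defining monocyte gene named for that reason, had 0.392 to 0.527 CPM unlasered. It had 0.884, 0.891, 0.0436 and 0.108 CPM in lasered libraries 1 to 4. The gate took Ly6C- cells, so the low level of Ly6c2 cannot tell whether monocyte-derived cells were present. Ccr2, a receptor of monocytes and some dendritic cells, had 81.5, 128, 19.7 and 7.57 CPM in lasered libraries 1 to 4 against 5.63 to 14.2 CPM unlasered. T and NK cell genes summed to 1.11 to 2.5 CPM unlasered and 1.74 to 8.20 CPM lasered, highest in lasered libraries 1 and 2 at 5.42 and 8.20 CPM. In that list, genes named after their values were seen differed, with Cd3e at most 0.049 CPM in any library, while Gzmb was listed at 0 unlasered and had 0.634 and 1.56 CPM, and Nkg7 0.249 and 0.780 CPM, in lasered libraries 1 and 2. B cell genes summed to 49.9 to 97.9 CPM unlasered and 37.0 to 79.1 CPM lasered, and neutrophil genes to 0.613 to 11.2 and 1.54 to 13.9 CPM. Of the 7 neutrophil genes 2 were tested, and 1 of them, the collagenase gene Mmp8, rose by 1.69 (SE 0.38, adjusted p = 0.0337, limma). Mmp8 passed the filter only through the lasered libraries, so its call is a description. Of the border macrophage genes, 2 of 7 tested, Pf4 and Ms4a7, fell by 0.89 and 0.81 on the log2 scale, and 1 of 5 tested Mueller glia genes, Dkk3, fell by 0.91. Rod photoreceptor genes summed to 2251 to 20191 CPM unlasered and 321 to 1020 CPM lasered, and 14 of 15 fell. In bulk libraries, fewer cells of a type and less RNA per cell cannot be told apart.

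The genes whose levels followed each member most closely were listed by Pearson r of log2(CPM + 1) over the 7 libraries, as a description. For Ccl22 they were Mmp8 (0.991), Gm6654 (0.990), Pnpla2 (0.990), H2-K1 (0.989) and Gm8953 (0.988). Mmp8, the neutrophil list gene that rose, had 2.63, 5.72, 1.72 and 0.889 CPM in lasered libraries and at most 0.0555 CPM unlasered, the same order of libraries as Ccl22 within the lasered group. The closest genes were Tspo (0.991) and Ube2l6 (0.989) for Ccr7, Mta3 (0.987) for Flt3, and Tpt1-ps4 (0.991) and Ms4a4a (0.989) for Cd209a. For members that did not stand out in lasered libraries 1 and 2 they were St8sia4 (0.991) for Zbtb46, Kcmf1 (0.974) for Itgae, Gm5575 (0.989) for Xcr1 and Tmem109 (0.982) for Fscn1.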

How the data were processed

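RNA of about 10000 sorted rMG per library was amplified with the SMARTer Ultra Low Input kit, which does not mark strand, and sequenced. Per the labels and the methods of the study, the authors filtered reads with cutadapt and removed duplicate reads with FastUniq. They mapped the remaining reads to GRCm38 with Bowtie2, counted them per gene with HTSeq and normalised them. The deposited values are headed TPM but are CPM: each library's values were whole multiples of the value of 1 read (100.0% within 0.01), so read counts were recovered from the deposited CPM. The counts are those after that removal of duplicate reads. The reads carry no molecular identifier, so intervals cover counting error only.

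The members and lists were chosen with earlier results of these data known. Libraries were grouped by their titles, 3 unlasered and 4 lasered. The 17496 genes that reached 1 CPM in 3 or more libraries were fitted as log2(CPM + 1) with limma 3.58.1 in R 4.3.3 (trend and robust), with Benjamini-Hochberg adjustment over all of them and a threshold of 0.05. No p is given for the members. Named were all members, their partners, up to 4 genes of each other list (those that passed the test, otherwise the most abundant), and the genes most like each member; exceptions are stated. Alternatives were a pseudocount of 0.1, other filters and scaling, a replicate block, leaving out libraries, and edgeR 4.0.16 and DESeq2 1.42.0 on the recovered reads. The fit was tested on simulated data. Exon lengths and positions came from GENCODE on GRCm38, and promoters from RefSeq.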

Additional observations from a re-analysis of the deposited data

Results flagged for a closer look

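Of 35 gene levels checked in the 4 lasered libraries, 3 had 1 library far from the other 3 (Dixon's test), and chance gives about 1 in 20. Clec9a was highest in lasered library 2, at 0.245 CPM. Fscn1 was highest in lasered library 4, at 244 CPM. Irf8 was highest in lasered library 4 too, at 582 CPM.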

How the results depend on the processing

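Of the 8 members tested, 1 was called with all libraries, where 6.93% of all genes tested were. The members were chosen with this comparison known, so these counts are descriptions. The count was 2 with a pseudocount of 0.1 (Cd209a and Ccl22) and with edgeR (the same genes), and 3 with DESeq2 (Cd209a, Ccr7 and Ccl22). It was 1 to 3 when single libraries were left out, and 0 without lasered libraries 1 and 2. It was also 0 with the study's thresholds, used there with DESeq2 and here with the limma differences. They require a group level of 100 or more, besides p under 0.05 and a log2 difference larger than 1.5 in size. Among the members, Fscn1 alone reached that level (240 CPM unlasered, 132 CPM lasered), and its difference was -0.995. Ccl22, at 16.7 CPM lasered, was left out by its level, so this 0 cannot tell whether Ccl22 differed. Among the dendritic cell lists, 4 genes rose with all libraries, 1 without a filter on low values, 7 with edgeR, 9 with DESeq2 and 1 with the study's thresholds, under which 0 fell. When single libraries were left out, 1 to 6 rose and 2 to 3 fell. Without lasered libraries 1 and 2, 0 rose and 0 fell.

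Over all genes 1213 were called, 676 higher and 537 lower. The counts were 385 (212 and 173) without a filter, 2318 (1177 and 1141) with DESeq2, 54 (22 and 32) with the study's thresholds, and 0 (0 and 0) without lasered libraries 1 and 2. Leaving out single libraries gave 264 to 1248 calls, 150 to 815 higher and 114 to 433 lower. The replicate block gave 3 calls, 2 higher and 1 lower, with 0 members and 0 list genes in either direction. Same-numbered libraries did not deviate together (correlations of -0.18, -0.13 and -0.02). These correlations over so few libraries cannot tell whether same-numbered libraries shared mice, days or sorts. Lasered library 4, which has no partner, adds nothing to the fit with the block. The difference of Itgae was -0.04 and -0.046 without lasered library 1 or 3 (-0.046 to 0.52 when single libraries were left out) and -0.22 without lasered libraries 1 and 2, and that of Zbtb46 was -0.18 without unlasered library 2 (-0.18 to 0.44). With a pseudocount of 0.1 the r with MHC class II was 0.79 for Ccr7, 0.78 for Ccl22 and 0.90 for Cd209a. The cause of these changes was not tested. Ccl22 and Cd209a had at most 4 reads per unlasered library, so the size of their fold is limited by depth.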
